A study of Mus musculus with 14 samples.

Results

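The collagen genes of the mouse liver were followed over 3 diets. Members were all non-control probes whose gene name in the scanner files, or whose current symbol, has the form Col-number-a-number, and for a gene with several probes the brightest one was read. This gave 37 collagen genes, read by 55 probes, among 36096 genes and 41174 probes on the array. The study measured liver RNA of one-year-old male C57BL/6 mice on 14 Agilent 44K whole-genome arrays, 1 animal per array. All mice ate as much as they wanted. The resveratrol group (HCR in the labels, n = 4) ate a high-calorie form of the AIN-93G diet, in which 60% of calories came from fat, with 0.04% resveratrol added. Resveratrol is a polyphenol found in grape skin. The high-calorie group (HC, n = 5) ate the same 60% fat diet without resveratrol, and the standard-diet group (n = 5) ate unmodified AIN-93G. Each animal's RNA carried Cy3 and was hybridised against a Cy5 pool of 5 standard-diet livers, and the labels leave it unsaid whether those were the same 5 mice. Every value below is therefore a log2 ratio of a liver to that pool, and only differences between diets are read from it. The dyes were never exchanged, so a ratio of 0 does not mark equal RNA.

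Collagens are the triple-helical proteins of the extracellular matrix. Fibrillar collagens, here the genes of types I, II, III, V, XI and XXVII, build the banded fibrils that give tissue its tensile strength, and types I and III are the main components of liver scar. Type IV collagens form the sheet-like network of basement membranes. The remaining types sit on fibril surfaces, form beaded filaments or hexagonal lattices, span cell membranes, or carry heparan sulfate or chondroitin sulfate chains in basement membrane zones. In the liver most fibrillar collagen is made by hepatic stellate cells, the vitamin A-storing pericytes of the sinusoids, and by portal fibroblasts. By these structural classes the 37 genes comprised 10 fibrillar genes, 6 basement membrane genes (type IV) and 21 others. Whole-liver RNA cannot separate fewer collagen-making cells from less collagen RNA per cell.

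Most collagen probes gave a signal in liver. Of the 37 genes, 31 were well above background in Cy3 on all 14 arrays and 6 on some of them. All 10 fibrillar genes were well above background on every array. Col4a5 (10 arrays), Col6a6 (9), Col10a1 (6), Col12a1 (9), Col15a1 (11) and Col6a1 (2) were the 6 with partial detection. By group, 32 genes were well above background on every resveratrol array, 32 on every high-calorie array and 31 on every standard-diet array. Col6a1 was well above background on no resveratrol, 1 high-calorie and 1 standard-diet array and was the only member left out of the tests, which required 4 arrays. The other 36 genes were tested within a model of 32675 genes. No collagen probe was saturated on any array.

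The arrays differed in brightness. The share of probes well above background was 82.0% to 92.4% in resveratrol, 83.6% to 91.8% in high-calorie and 77.9% to 88.3% in standard-diet livers. An array's median Cy3 signal over background ran from 41.5 to 73.4 intensity units in resveratrol, from 39.3 to 93.9 in high-calorie and from 30.1 to 62.9 in standard-diet livers. All 4 resveratrol arrays, 2 high-calorie and 3 standard-diet arrays were processed in the scanner software on the first of 2 days. Over all genes, resveratrol replicate 3 stood apart. Its log2 ratios correlated at 0.43 to 0.51 with those of the other resveratrol livers, which correlated at 0.68 to 0.79 with each other, against 0.77 to 0.89 among high-calorie and 0.53 to 0.87 among standard-diet livers. By slide number, 3 resveratrol, 2 high-calorie and no standard-diet arrays fell in the lower of 2 series. The label of liver was checked on 7 hepatocyte markers, Ahsg and Apoa1 among them. Each was well above background on at least 1 array of every group. Their mean log2 ratio to the pool was 0.69 to 1.44 in resveratrol, 0.31 to 0.60 in high-calorie and 0.66 to 0.89 in standard-diet livers. Since the pool is itself liver, these ratios cannot check the tissue.

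The high-calorie diet was compared with the standard diet to ask how collagen RNA stood in the fatty-diet liver. Of the 36 tested collagens, 6 rose (16.7%) and 2 fell (5.56%) at an adjusted p under 0.05 in limma, while 5.37% of all genes tested rose and 4.07% fell. In either direction 22.2% of the collagens and 9.44% of all genes were called. The share that fell is close to that of all genes. The 8 called genes were also those whose groups did not overlap, 6 higher (16.7%) and 2 lower (5.56%), beside 5.15% and 5.18% of all genes. Over all genes 1754 were called higher and 1329 lower, a split that became 2396 and 636 when arrays were centred on their median in place of loess. The rises belonged to Col3a1, Col1a2, Col14a1, Col1a1, Col8a1 and Col5a1, and the falls to Col18a1 and Col9a3. The median difference over the 36 collagens was 0.0027 on the log2 scale, against -0.0021 over all genes.

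Among the 10 fibrillar genes 4 rose, none fell and 6 were not called. Their median difference was 0.052, and it was 0.22 under median centring and -0.037 in the Cy3 channel alone. The median over the 6 type IV genes was about as large, at 0.051, and it was 0.085 and 0.045 under these 2 settings. Col3a1, on chromosome 1, encodes the single chain of type III collagen. Its log2 ratios were 0.78, 0.51, 0.61, 0.48 and 0.33 in high-calorie livers, against -0.081, -0.23, -0.24, -0.39 and -0.10 in standard-diet livers. Every high-calorie liver lay above every standard-diet liver. The difference was 0.75 ± 0.10 (SE), a 1.68-fold rise, with an adjusted p of 0.000427 and a 95% interval of 0.55 to 0.95. Col1a2, on chromosome 6, encodes the second chain of type I collagen. It had 0.67, 0.55, 0.49, 0.45 and 0.26 in high-calorie livers and -0.0050, -0.15, -0.24, -0.13 and -0.10 in standard-diet livers, again without overlap. It rose 1.53-fold, by 0.61 ± 0.080 (adjusted p = 0.000515).

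Col1a1, on chromosome 11, encodes the other, more abundant chain of type I collagen. Its values were 0.18, 0.16, 0.17, 0.26 and 0.032 in high-calorie livers and -0.062, 0.028, -0.071, -0.17 and -0.11 in standard-diet livers. The lowest high-calorie and the highest standard-diet liver nearly met, and the rise of 0.24 ± 0.055 (adjusted p = 0.0174) stood beside 0.61 for Col1a2, a gap that was not tested. The sign turned to -0.13 (adjusted p = 0.799) when the Cy3 channel was used without the pool. Col5a1, whose chain helps to start type I fibrils and limits their width, had 0.18, 0.070, 0.17, 0.10 and 0.11 in high-calorie and -0.062, -0.041, -0.062, -0.11 and 0.050 in standard-diet livers and rose by 0.17 ± 0.040 (adjusted p = 0.019). Its call was lost without high-calorie replicate 1 (adjusted p = 0.0511) and without standard-diet replicate 4 (adjusted p = 0.0504).

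The other type V chains were not called. Col5a2 differed by -0.0071 ± 0.038, with a 95% interval of -0.089 to 0.075, and Col5a3 by 0.10 ± 0.077, with an interval of -0.067 to 0.26. These intervals belong to the main fit. Over the other log2 settings listed at the end, Col5a2 ran from -0.28 to 0.11 and Col5a3 from -0.087 to 0.28, without a call. The cartilage-type fibrillar genes Col2a1, Col11a1 and Col11a2 and the minor fibrillar gene Col27a1 differed by -0.17 to 0.0073 on their brightest probes, none of them called. The plot of values by array shows the genes called in any comparison.

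**Figure D1:**
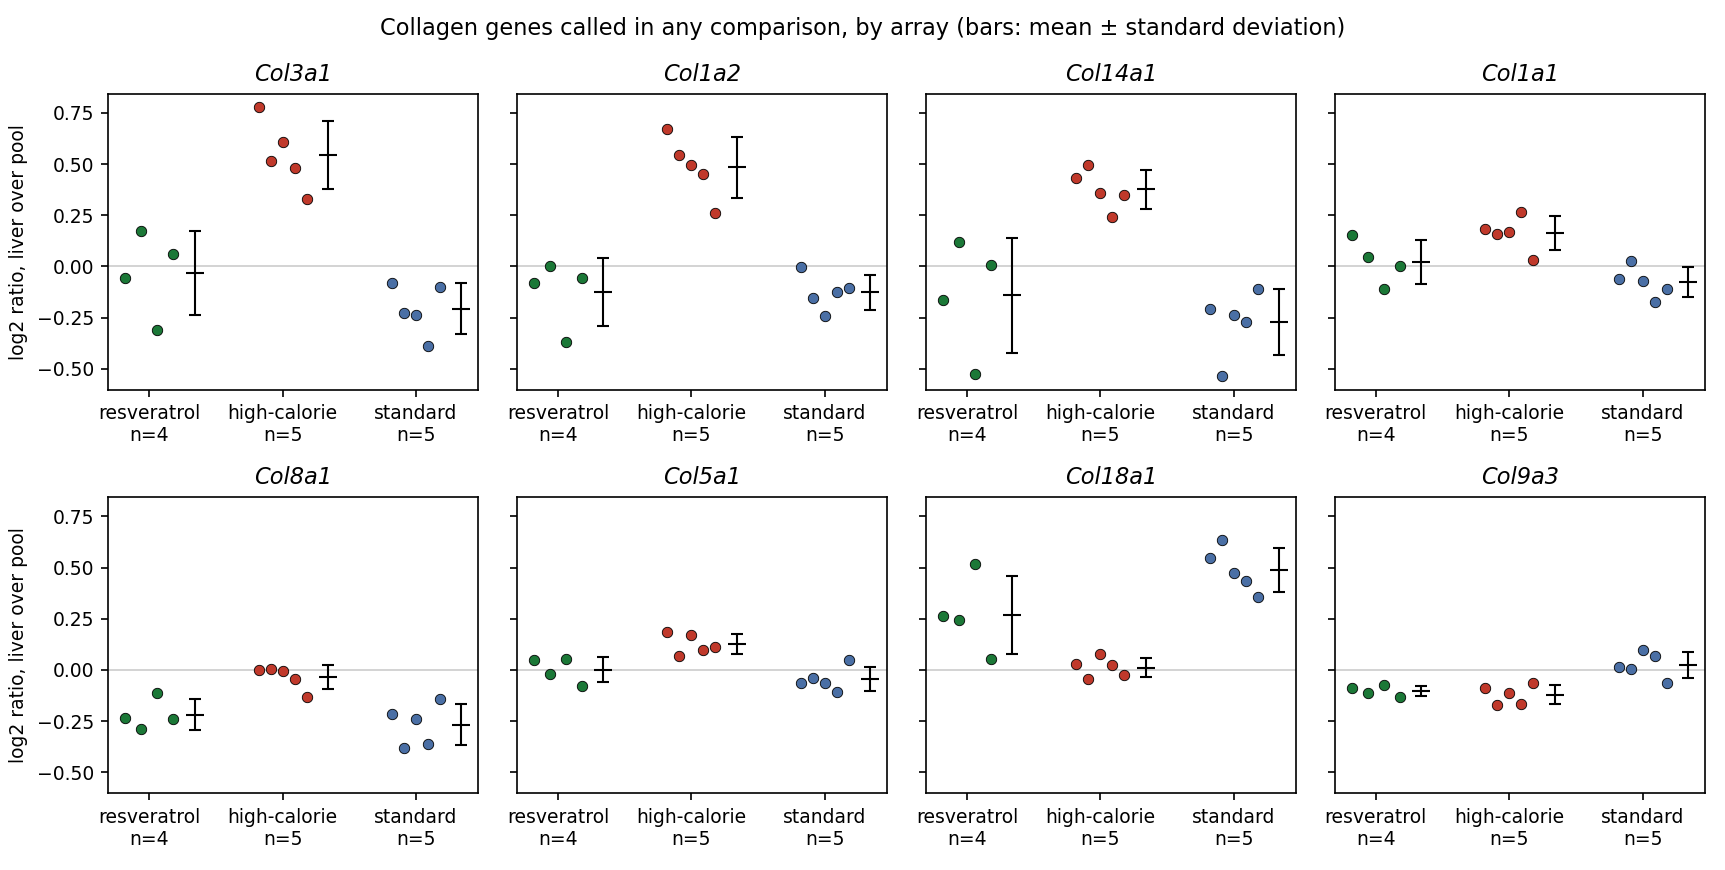
Log2 ratio of each liver to the pool (y axis) for the 8 collagen genes called in any comparison, with resveratrol, high-calorie and standard-diet livers from left to right, 1 point per array, and bars at the mean ± 1 standard deviation. Col3a1, Col1a2 and Col14a1 stand highest in all 5 high-calorie livers, and Col18a1 is lower there than in every standard-diet liver.

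Col3a1, Col1a2 and Col14a1 moved together, and the 250 bases before the annotated start sites of Col3a1 and Col1a2 are shown here. Both come from RefSeq's GRCm38.p6 annotation, on the plus strand, at chr1:45311288-45311537 for Col3a1 and chr6:4505368-4505617 for Col1a2. Windows were at hand for 29 of the 37 members, and Col14a1 was not among them. Capitals mark CCAAT (the CCAAT box), GGGCGG (the GC box), TATAAA (the TATA box) and CAGAC (the core of a SMAD element), searched on both strands, so that GTCTG is CAGAC on the minus strand.
Col3a1: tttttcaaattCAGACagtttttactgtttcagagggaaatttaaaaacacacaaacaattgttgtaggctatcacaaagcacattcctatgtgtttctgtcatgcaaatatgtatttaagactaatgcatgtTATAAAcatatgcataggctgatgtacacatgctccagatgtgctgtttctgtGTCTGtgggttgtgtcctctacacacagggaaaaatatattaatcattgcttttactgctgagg
Col1a2: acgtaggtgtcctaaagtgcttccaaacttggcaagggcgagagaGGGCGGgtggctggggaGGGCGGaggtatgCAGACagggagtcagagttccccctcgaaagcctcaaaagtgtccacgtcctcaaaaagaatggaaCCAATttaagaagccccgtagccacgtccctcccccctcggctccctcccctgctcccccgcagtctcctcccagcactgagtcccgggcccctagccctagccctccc
The Col3a1 window holds TATAAA at 117 bases before the start and CAGAC at 239 bases before it, with CAGAC on the minus strand at 64. The Col1a2 window holds CCAAT at 109 bases before the start, GGGCGG at 205 and 188, and CAGAC at 175. No matches overlap. Of 32851 mouse promoter windows of the same length, 33.8% hold CCAAT, 32.7% GGGCGG, 12.4% TATAAA and 42.2% CAGAC, so each motif is frequent in such windows, and CAGAC is the 1 motif found in both of these.

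None of the 6 type IV genes was called on its brightest probe, and none had an unadjusted p under 0.05 in limma. Of all 32675 genes 9025 had one. The abundant pair Col4a1 and Col4a2, which make up the ubiquitous basement membrane network, averaged 0.051 ± 0.070 and 0.084 ± 0.088 (SD, n = 5) in high-calorie livers, against -0.0023 ± 0.029 and 0.035 ± 0.070 (SD, n = 5) in standard-diet livers. Their differences were 0.053 ± 0.042 and 0.048 ± 0.049, with intervals of -0.037 to 0.14 and -0.056 to 0.15. Both upper bounds lie well under the lower bound for Col3a1, but within the intervals of Col1a1 (0.12 to 0.36) and Col5a1 (0.085 to 0.26). The kidney-type chains Col4a3, Col4a4 and Col4a5 differed by -0.0030, 0.069 and 0.10, and Col4a6 by -0.042. Col4a5 was well above background on 3 resveratrol, 5 high-calorie and 2 standard-diet arrays, yet its difference of 0.10 ± 0.067 was not called (adjusted p = 0.338). Over the other log2 settings no type IV gene was called here, but the differences moved. Col4a1 ran from 0.012 to 0.085, Col4a2 from -0.021 to 0.15 and Col4a3 from -0.12 to 0.087. Col4a4 ran from -0.019 to 0.26, Col4a5 from -0.036 to 0.52 and Col4a6 from -0.43 to 0.25.

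Of the other collagens 2 rose, 2 fell and 16 of the 20 tested were not called. Col14a1, on chromosome 15, encodes a collagen with interrupted helices that sits on the surface of type I fibrils. Its values were 0.43, 0.50, 0.36, 0.24 and 0.35 in high-calorie livers and -0.21, -0.54, -0.24, -0.27 and -0.11 in standard-diet livers. All 5 high-calorie livers lay above all 5 standard-diet livers, and the rise of 0.65 ± 0.11 (1.57-fold, adjusted p = 0.00237) was close in size to that of Col1a2. Col8a1, a short-chain collagen of vessel walls, had 0.00066, 0.0037, -0.0042, -0.044 and -0.13 in high-calorie and -0.22, -0.38, -0.24, -0.36 and -0.14 in standard-diet livers and rose by 0.23 ± 0.051 (adjusted p = 0.0141). The high-calorie replicate 5 and the standard-diet replicate 5 lay next to each other there.

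Col18a1, on chromosome 10, encodes the core protein of a basement membrane heparan sulfate proteoglycan from which the fragment endostatin is cut, and it was the clearest fall. Its values were 0.027, -0.046, 0.078, 0.024 and -0.024 in high-calorie livers, against 0.55, 0.64, 0.47, 0.43 and 0.36 in standard-diet livers. The lowest standard-diet liver was still well above the highest high-calorie liver, and the difference was -0.48 ± 0.072 (0.718-fold, adjusted p = 0.00145). The fall depended on the scaling. With median centring in place of the intensity-dependent loess it was -0.070 (adjusted p = 0.643). The hepatocyte marker list moved in the same direction, with a median difference of -0.64 that was -0.079 under median centring, and its part in the Col18a1 result was not tested. Col9a3, a cartilage collagen chain, had -0.089, -0.17, -0.11, -0.17 and -0.065 in high-calorie and 0.012, 0.0067, 0.10, 0.070 and -0.063 in standard-diet livers and fell by 0.15 (adjusted p = 0.0279). Leaving out high-calorie replicate 2 or 4, or standard-diet replicate 3 or 4, took that call away, with adjusted p-values of 0.0716, 0.0626, 0.0742 and 0.0671.

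The remaining members of this class were not called. Col15a1, the relative of Col18a1 with chondroitin sulfate chains, differed by 0.069 ± 0.061, and Col6a2, a chain of the beaded type VI filaments, by -0.070 ± 0.051. Over the other log2 settings they ran from -0.13 to 0.42 and from -0.18 to 0.017. Over all 28 uncalled collagens the differences in the main fit ran from -0.17 (Col11a2) to 0.12 (Col16a1), and their 95% intervals there together spanned -0.31 to 0.26. Col16a1 had a difference of 0.12 ± 0.049 (adjusted p = 0.13) and Col7a1, the anchoring fibril collagen, one of -0.15 ± 0.072 (adjusted p = 0.191). The plot of differences by class puts all 36 genes side by side.

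**Figure D2:**
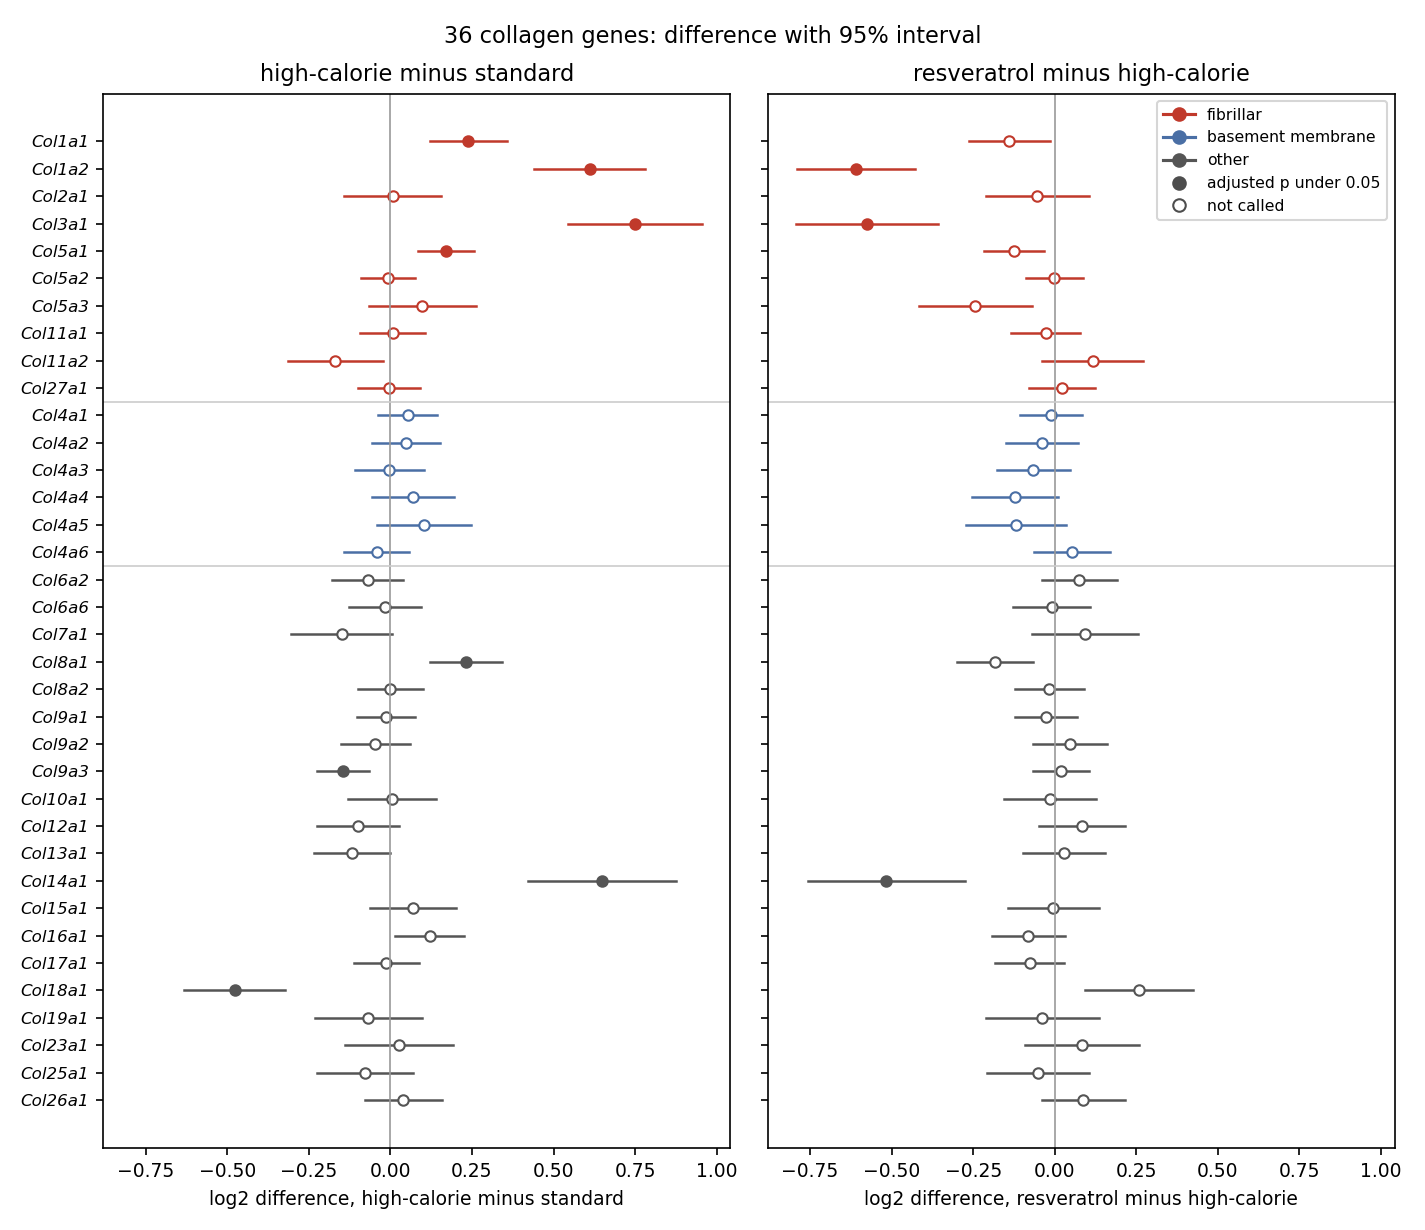
Log2 difference (x axis, points) with its 95% interval (lines) for the 36 tested collagen genes (y axis), high-calorie minus standard diet on the left and resveratrol minus high-calorie on the right, coloured by class, filled where the adjusted p is under 0.05. Col3a1, Col1a2 and Col14a1 lie to the right of 0 in the left panel and to the left of it in the right panel, and all 6 type IV genes are unfilled in both.

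Resveratrol was added to the high-calorie diet to ask what it changed there. No collagen rose and 3 of 36 fell (8.33%), while 3.16% of all genes rose and 2.22% fell. In either direction 5.39% of all genes were called. Of all genes 1033 were called higher and 727 lower, which became 31 and 89 under median centring. The median over the 36 collagens was -0.023, against -0.0068 over all genes. The 3 genes were Col1a2, Col3a1 and Col14a1. The median over the 10 fibrillar genes was -0.090, and it was -0.15 under median centring and 0.015 in the Cy3 channel alone, in which no collagen was called. Over the 6 type IV genes the median was -0.052. The median over the hepatocyte markers was 0.57 (0.35 under median centring), and its part in the collagen values was not tested. This comparison shares its 5 high-calorie livers with the one above, so the direction of these genes is not an independent observation.

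Col1a2 had -0.080, 0.0040, -0.37 and -0.057 in resveratrol livers, against the high-calorie values of 0.26 to 0.67 given above. The 4 resveratrol livers were all below the lowest high-calorie liver. Its RNA was 0.655-fold, a difference of -0.61 ± 0.085 (adjusted p = 0.00397, 95% interval -0.79 to -0.43). Col3a1 had -0.054, 0.18, -0.31 and 0.060 in resveratrol livers, all under the lowest high-calorie value of 0.33. It was 0.671-fold, at -0.58 ± 0.10 (adjusted p = 0.00925). Col14a1 had -0.16, 0.12, -0.52 and 0.0088 in resveratrol livers, with the highest of them below the lowest high-calorie liver. It was 0.699-fold, at -0.52 ± 0.11 (adjusted p = 0.0202). Replicate 3 was the lowest resveratrol liver for all 3 genes. Without it the differences were -0.53, -0.48 and -0.39 for Col1a2, Col3a1 and Col14a1, each still called. Without it the count of called collagens was again 3 against the high-calorie and 0 against the standard diet, while calls over all genes against the standard diet became 138 higher and 72 lower in place of 41 and 29.

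The Col14a1 call was the least secure. Its adjusted p became 0.0728 without resveratrol replicate 1, 0.054 without high-calorie replicate 2 and 0.0691 with the processing day as a block, at differences of -0.51, -0.49 and -0.52.

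The other collagens called between high-calorie and standard diet were not called in this comparison. Neither was Col5a3, which had not been called there. Col9a3 differed by 0.019 ± 0.040 between resveratrol and high-calorie livers (adjusted p = 0.824). Col1a1 had 0.15, 0.047, -0.11 and 0.0023 in resveratrol livers and a difference of -0.14 ± 0.058 (adjusted p = 0.178). Its sign was not stable, as it ran from -0.26 to 0.34 over the other log2 settings, without a call. Col5a1 had 0.050, -0.019, 0.052 and -0.077, Col8a1 -0.23, -0.29, -0.11 and -0.24 and Col5a3 0.23, 0.16, -0.081 and 0.15, with differences of -0.13 ± 0.043, -0.18 ± 0.054 and -0.24 ± 0.081 and adjusted p-values of 0.101, 0.0649 and 0.0951. In Col5a1 and Col5a3 all resveratrol livers lay below all high-calorie livers although neither gene was called. Separation without overlap was seen downwards for 5 of 36 collagens (13.9%) and 6.15% of all genes, and upwards for no collagen and 6.82% of all genes. Without background correction Col5a1, Col5a3 and Col8a1 were called as well, at -0.046, -0.14 and -0.071. Calls over all genes then became 1442 higher and 1253 lower, in place of 1033 and 727.

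Col18a1 had 0.26, 0.25, 0.52 and 0.055 in resveratrol livers and a difference of 0.26 ± 0.077 that just missed the threshold (adjusted p = 0.0648). Its replicate 4 overlapped the high-calorie range, and without that liver the difference was 0.33 (adjusted p = 0.0198), while without replicate 3, the highest, it was 0.18 (adjusted p = 0.161). Type IV genes again gave no call on their brightest probes, with differences from -0.12 (Col4a4) to 0.053 (Col4a6, without resveratrol replicate 3, whose spot carried an outlier flag). Col4a1 and Col4a2 averaged 0.038 ± 0.075 and 0.045 ± 0.059 (SD, n = 4) in resveratrol livers, and their differences of -0.013 ± 0.045 and -0.039 ± 0.052 had intervals of -0.11 to 0.083 and -0.15 to 0.072. Over the other log2 settings Col4a1 ran from -0.055 to 0.19 and Col4a2 from -0.13 to 0.066. Col4a5 ran from -0.47 to 0.0033, and Col4a6 from -0.079 to 0.40 with a call in 1 setting.

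Resveratrol livers were also set against standard-diet livers. No collagen was called in limma, while 0.214% of all genes were (0.125% higher, 0.0888% lower). There were 3 of 36 collagens with an unadjusted p under 0.05, namely Col9a3, Col18a1 and Col26a1, beside 3466 of 32675 genes. The median over the collagens was -0.012, against 0.00045 over all genes. Col1a2 averaged -0.13 ± 0.17 (SD, n = 4) in resveratrol livers and -0.13 ± 0.086 (SD, n = 5) in standard-diet livers, and the interval of the difference ran from -0.18 to 0.18. The intervals were -0.042 to 0.39 for Col3a1 and -0.11 to 0.37 for Col14a1, so rises of the size seen with the high-calorie diet alone lie outside them. Col18a1 remained -0.22 apart (95% interval -0.38 to -0.054, adjusted p = 0.331). Col9a3 averaged -0.10 ± 0.025 in resveratrol and 0.025 ± 0.063 in standard-diet livers, the only collagen whose groups did not overlap here (adjusted p = 0.257), where 1.85% of all genes were separated downwards and 1.09% upwards.

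Spread between mice was small beside the leading differences. The median SD over the 36 genes was 0.11 in resveratrol, 0.081 in high-calorie and 0.072 in standard-diet livers. The widest spread was that of Col14a1 in resveratrol livers (SD 0.28), of Col3a1 in high-calorie livers (0.17) and of Col19a1 in standard-diet livers (0.19). Resveratrol replicate 3 stood lowest in Col1a2, Col3a1, Col14a1 and Col5a3 and highest in Col18a1 and Col23a1 within its group. The map of all genes by array shows these patterns at once.

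**Figure D3:**
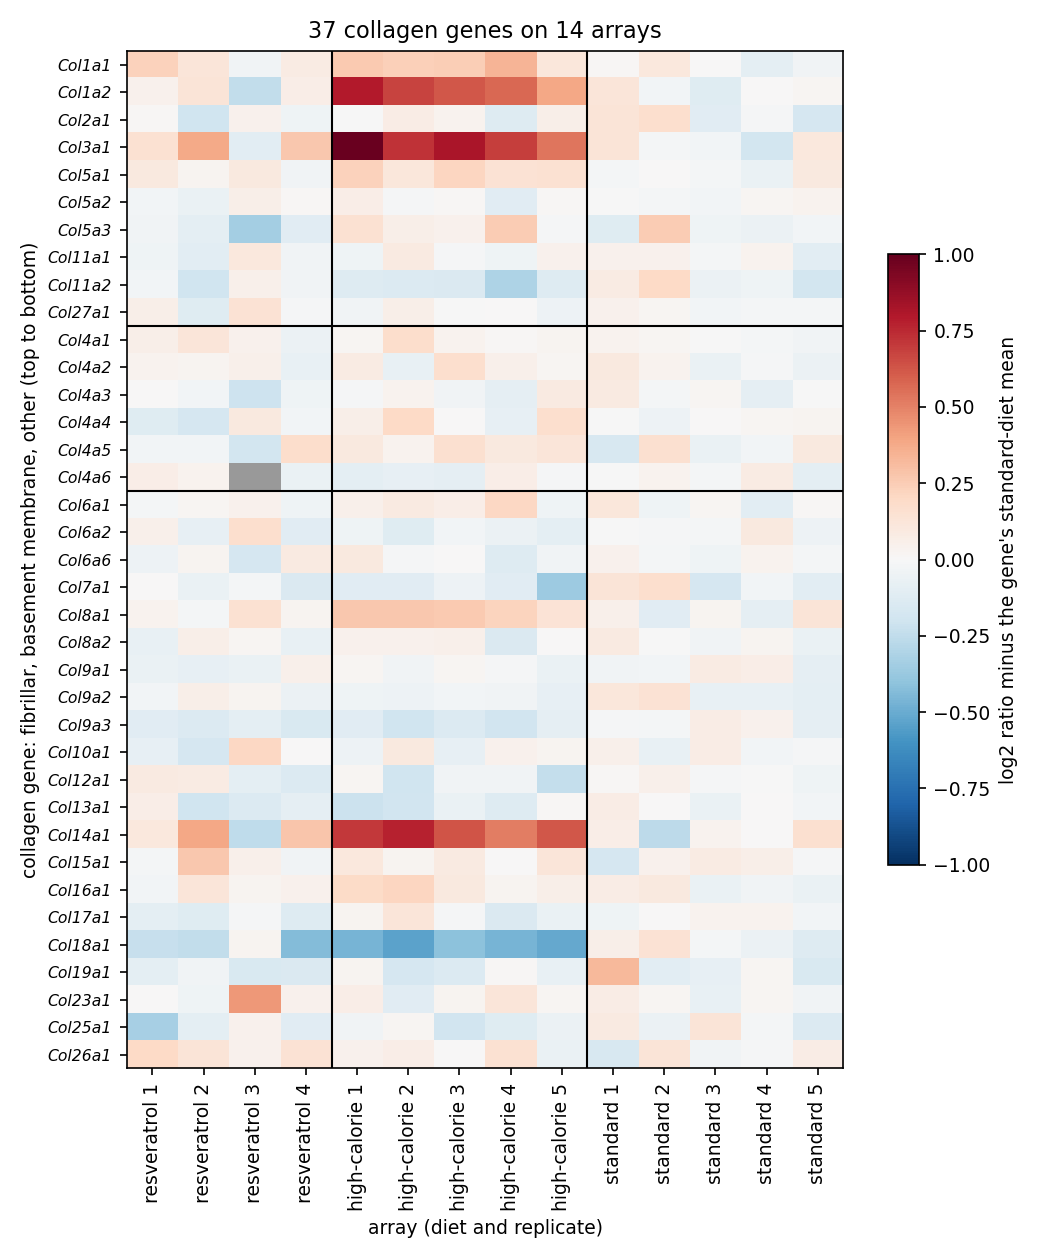
Log2 ratio minus the gene's standard-diet mean (colour) for 37 collagen genes (rows, by class) on 14 arrays (columns, resveratrol, high-calorie and standard-diet livers from left to right), grey where the spot was left out. The red blocks of Col3a1, Col1a2 and Col14a1 fill all 5 high-calorie columns, while the type IV rows stay pale throughout.

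Results within a processing day or slide series had the same direction for the leading genes. For high-calorie against standard diet, Col3a1 differed by 0.87 on day 1 (2 against 3 livers), 0.65 on day 2 (3 against 2) and 0.69 in the upper slide series (3 against 5). Col1a2 gave 0.69, 0.56 and 0.56, Col14a1 0.58, 0.72 and 0.67, and Col18a1 -0.46, -0.49 and -0.49. All 4 were called in the upper slide series, Col3a1 and Col1a2 on day 1, and none on day 2, with the lowest adjusted p there 0.109 for Col3a1. For resveratrol against high-calorie, day 1 (4 against 2) gave -0.69 for Col1a2, -0.66 for Col3a1 and -0.48 for Col14a1, and the lower slide series (3 against 2) gave -0.73, -0.73 and -0.56. None of the 3 was called within a day or series, and their adjusted p-values ran from 0.0714 for Col1a2 on day 1 to 0.304 for Col14a1 in the lower series. Day 2 held no resveratrol liver.

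Several collagens had more than 1 probe, and the probes did not always agree. A fit of every probe on its own, added after the data had been seen, tested 37136 probes. The second Col18a1 probe averaged 0.69 ± 0.072 in high-calorie livers and 1.07 ± 0.16 in standard-diet livers (SD, n = 5 each) and fell too, at -0.39 ± 0.086 (adjusted p = 0.0149). Its resveratrol minus high-calorie difference was only 0.010, against 0.26 on the brighter probe. The second Col1a1 probe was well above background on 1 resveratrol, 5 high-calorie and 1 standard-diet arrays and differed by 0.033 ± 0.043 between high-calorie and standard diet. The second Col1a2 probe was well above background on no array.

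The dimmer Col2a1 probe was called and the brightest was not. It averaged 0.32 ± 0.19 in high-calorie livers and -0.27 ± 0.10 in standard-diet livers (SD, n = 5 each), a rise of 0.58 ± 0.10 (adjusted p = 0.00273), where the brightest probe gave 0.0067. Col2a1 encodes the main collagen of cartilage, and which transcript the dimmer probe reads was not tested. The dimmer Col4a6 probe rose with resveratrol, at 0.030 ± 0.090 (SD, n = 4) against -0.19 ± 0.062 in high-calorie livers (SD, n = 5), a difference of 0.22 ± 0.056 (adjusted p = 0.035). This was the sole type IV call on any probe in the 3 comparisons of that fit.

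A further 10 probes carry no collagen gene name but a file description that names one. A pair described as fragments of type III procollagen differed by 0.020 and -0.037 between high-calorie and standard diet, where the Col3a1 probe gave 0.75. The probe described as a type I alpha 1 precursor differed by -0.018. Col6a3, a type VI chain with no probe of its own name, was described on 3 probes that differed by 0.15, 0.018 and -0.027, none called. The rises of Col3a1, Col1a2 and Col14a1 therefore rest on 1 probe each, since Col14a1 had no other.

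**Figure D4:**
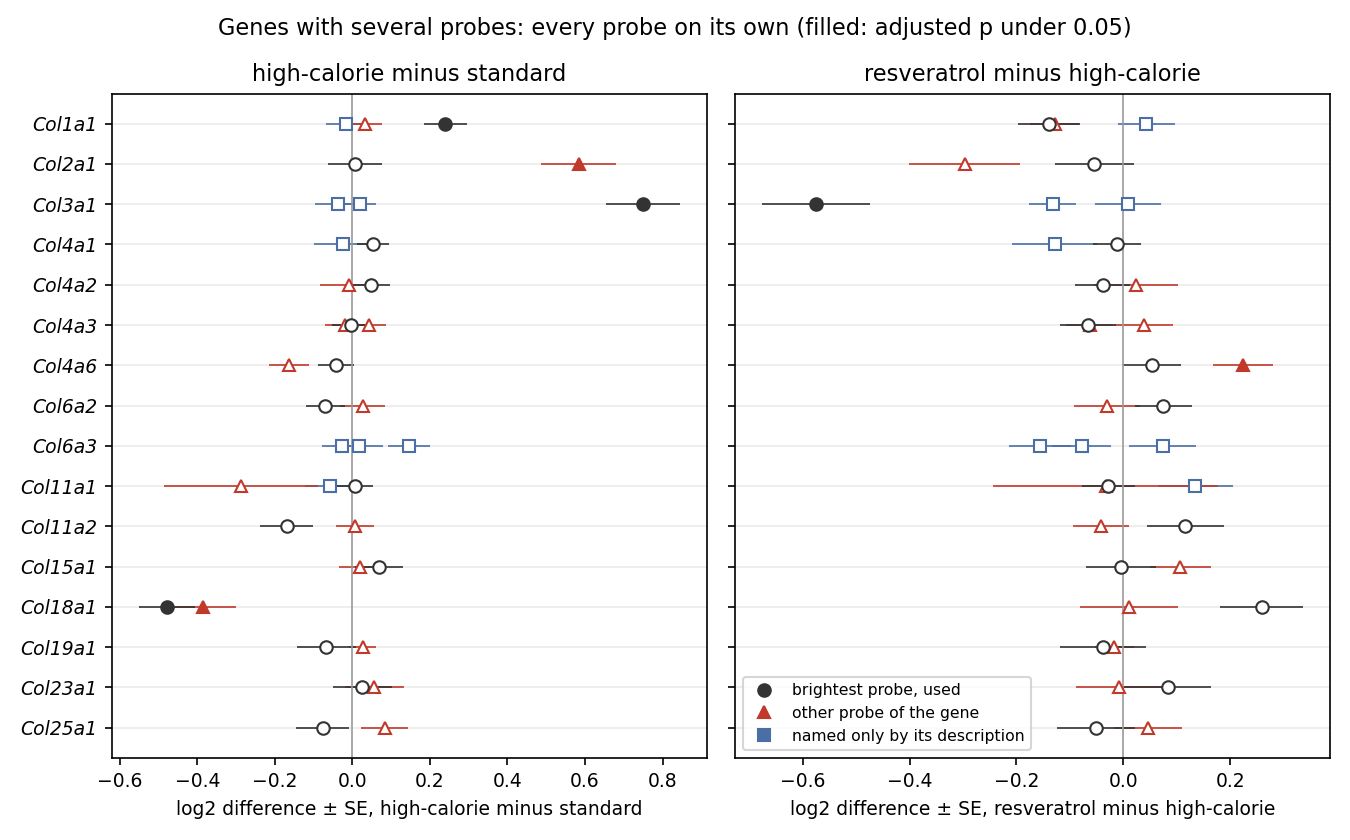
Log2 difference ± SE (x axis) of every probe above the filter, for collagen genes (y axis) with more than 1 such probe, high-calorie minus standard diet on the left and resveratrol minus high-calorie on the right, with circles for the probe used, triangles for other probes of the gene and squares for probes named only by their description, filled where the adjusted p is under 0.05. Both Col18a1 probes are filled in the left panel, whereas Col1a1, Col2a1 and Col3a1 each have 1 filled probe.

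Genes that make, shape, bind or break down collagen were read from 7 lists. Beside their counts, 5.37% of all genes rose and 4.07% fell with the high-calorie diet. With resveratrol added to it, 3.16% rose and 2.22% fell. An unadjusted p under 0.05 in limma was held by 9025 of all 32675 genes in the first comparison and by 7244 in the second. Between resveratrol and standard diet 3466 held one. Among 18 enzymes and chaperones of collagen synthesis and folding, none rose with the high-calorie diet and 1 fell. That one was Ppib, a prolyl isomerase of the endoplasmic reticulum, at -0.56 ± 0.10 (adjusted p = 0.00419), and the call was lost under median centring (-0.19). Serpinh1, the collagen chaperone HSP47, differed by 0.29 ± 0.11 between high-calorie and standard diet and by -0.26 ± 0.11 between resveratrol and high-calorie, with adjusted p-values of 0.0901 and 0.187. Of 10 tested genes of propeptide processing and crosslinking only Pcolce, which enhances cleavage of the type I propeptide, rose with the high-calorie diet, by 0.15 ± 0.044 (adjusted p = 0.0439). That call was lost with the Cy3 channel alone (0.084), with the scanner's own processed signals (0.18) and with a normexp offset of 0 (0.16). With resveratrol none of the 18 or the 10 was called in limma, with 3 and 2 at an unadjusted p under 0.05. Bmp1, the protease that removes the C-propeptide, differed by 0.16 ± 0.043 there (adjusted p = 0.0517). The median differences of these lists lay between -0.0041 and 0.029 in both comparisons.

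Among the 15 tested fibril partners Postn was the single gene called, with the smallest adjusted p of the 7 lists. Postn, the matricellular protein periostin that binds type I collagen, averaged 0.35 in high-calorie and -0.24 in standard-diet livers and rose by 0.59 ± 0.048 (adjusted p = 2.08e-05). It was -0.43 ± 0.051 in resveratrol against high-calorie livers (adjusted p = 0.00176). The other 14 tested partners, among them Dcn, Lum, Sparc and Fn1, were not called in either comparison. Dcn, a small proteoglycan that coats fibrils, differed by -0.052 ± 0.11 between high-calorie and standard diet, and Fn1, fibronectin, by -0.25 ± 0.17.

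Of 10 tested basement membrane partners 2 rose with the high-calorie diet and none fell. These were Nid1, which links laminin to type IV collagen, by 0.44 ± 0.077 (adjusted p = 0.005), and Lamb3, a laminin chain, by 0.28 ± 0.042 (adjusted p = 0.00143). Lamb3 was well above background on no standard-diet array, and its difference was 0.046 and not called under median centring. With resveratrol both fell against the high-calorie diet, Nid1 at -0.36 ± 0.077 (adjusted p = 0.0223) and Lamb3 at -0.17 ± 0.044 (adjusted p = 0.0442). Neither fall was called under median centring or with the scanner's own processed signals. There Nid1 differed by -0.30 and -0.49, and Lamb3 by -0.0051 and -0.52.

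Of 14 tested genes of collagen degradation none was called with the high-calorie diet in limma, and 3 had an unadjusted p under 0.05, led by Mmp19 at -0.16 ± 0.048 (adjusted p = 0.0506). With resveratrol the collagenase Mmp13 was -0.22 ± 0.048 and fell (adjusted p = 0.0196), while Mmp19 rose by 0.23 ± 0.051 (adjusted p = 0.0227), both against high-calorie livers and both lost under median centring (-0.13 and 0.094). None of 8 collagen receptors was called in limma in either comparison, with 1 and 2 at an unadjusted p under 0.05. Itgb1, the common beta chain of the collagen-binding integrins, differed by 0.24 ± 0.10 between high-calorie and standard diet and by -0.27 ± 0.10 between resveratrol and high-calorie (adjusted p = 0.121 and 0.145).

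Of 16 fibrogenic signals 2 rose with the high-calorie diet and 2 fell with resveratrol, and they were Pdgfrb and Pdgfa both times. Pdgfrb, the PDGF receptor of stellate cells, differed by 0.31 ± 0.088 between high-calorie and standard diet (adjusted p = 0.0414) and by -0.36 ± 0.094 between resveratrol and high-calorie (adjusted p = 0.0412). Pdgfa, a PDGF chain that signals through the related alpha receptor, differed by 0.18 ± 0.053 in the first of these comparisons (adjusted p = 0.0461) and by -0.28 ± 0.057 in the second (adjusted p = 0.0148). With a normexp offset of 0 none of the 4 was called, at 0.36 and -0.45 for Pdgfrb and 0.17 and -0.29 for Pdgfa. In the Cy3 channel alone none was called either, at 0.58 and -0.63 for Pdgfrb and 0.059 and -0.26 for Pdgfa. Under median centring only the Pdgfa rise was still called (0.38), and with the scanner's own processed signals only the Pdgfa fall (-0.30). Tgfb1, the main profibrotic cytokine, differed by -0.058 ± 0.051 and -0.046 ± 0.054 in the same order, and Ccn2, connective tissue growth factor, by 0.23 ± 0.21 and 0.00084 ± 0.22, none called. In resveratrol against standard-diet livers no gene of the 7 lists was called in limma, with 0 to 3 per list at an unadjusted p under 0.05.

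**Figure D5:**
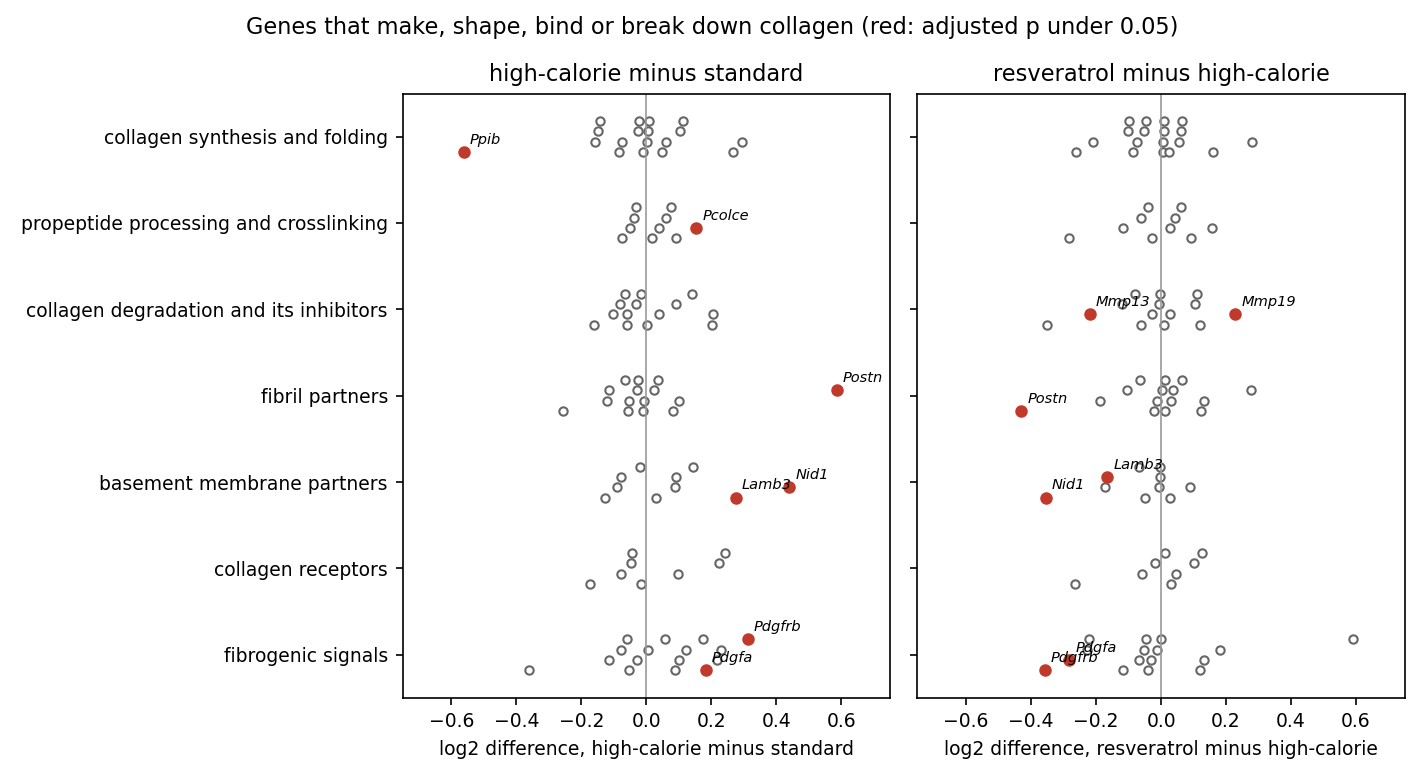
Log2 difference (x axis) of each tested gene (points) of 7 lists around collagen (y axis), high-calorie minus standard diet on the left and resveratrol minus high-calorie on the right, red and named where the adjusted p is under 0.05. Postn, Nid1, Lamb3, Pdgfrb and Pdgfa lie to the right of 0 on the left and to the left of 0 on the right, and most points lie near 0.

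Markers of the cells that could supply these RNAs were read in the same fit. Their counts stand beside 5.37% of all genes higher and 4.07% lower with the high-calorie diet. The shares were 3.16% and 2.22% for resveratrol against high-calorie livers. Of 11 stellate cell markers 4 rose with the high-calorie diet (Lrat, Rgs5, Pdgfrb and Vim) and 2 fell (Acta2 and Ngfr). Lrat, which stores retinol as esters, rose by 0.36 ± 0.055 (adjusted p = 0.00149), and Acta2, smooth muscle actin, fell by 0.19 (adjusted p = 0.0179). The sign of Acta2 turned in the Cy3 channel alone, and the Lrat call was lost under median centring. The mean log2 ratio of the list ran over 0.055 to 0.097 in resveratrol, 0.063 to 0.13 in high-calorie and -0.027 to 0.12 in standard-diet livers, so the groups overlapped as a whole. With resveratrol Lrat was -0.34 ± 0.058 (adjusted p = 0.0083) and Pdgfrb fell as given above, while Ngfr rose by 0.24 ± 0.053 (adjusted p = 0.0223). All 3 of these calls were lost under median centring, at -0.21 for Lrat, -0.27 for Pdgfrb and 0.10 for Ngfr. The part of stellate cell number in the collagen values was not tested.

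Portal fibroblast and mesothelial markers gave 1 rise (Entpd2) and 2 falls (Upk1b and Fbln2) of 10 with the high-calorie diet, and 2 rises (Fbln2 and Upk1b) with resveratrol. Entpd2, an ectonucleotidase of portal fibroblasts, rose by 0.27 ± 0.073 (adjusted p = 0.0378). It was 0.14 and not called under median centring, where the Upk1b and Fbln2 calls were lost too in both comparisons and the sign of the Fbln2 fall turned. Of 9 endothelial markers Pecam1 and Cdh5 rose with the high-calorie diet, by 0.22 ± 0.055 and 0.41 ± 0.12, and the sign of Pecam1 turned under median centring (-0.034). The Cdh5 call was lost under each of 5 other scalings, with adjusted p-values of 0.0623 to 0.108. Of 8 Kupffer cell markers Ctss rose by 1.08 ± 0.22 (adjusted p = 0.00966), and of 6 cholangiocyte markers Spp1 rose by 0.76 ± 0.17 (adjusted p = 0.0148). With resveratrol the Kupffer marker Csf1r rose by 0.28 ± 0.056 (adjusted p = 0.0149), a call lost under median centring (0.15), and no endothelial or cholangiocyte marker was called. The 7 hepatocyte markers gave 2 falls (Ahsg and Apoa1) with the high-calorie diet and 1 rise (Ahsg) with resveratrol, all lost under median centring. Of 5 adipocyte markers Cfd, the protease adipsin, rose by 2.52 ± 0.31 and Retn fell by 0.20 with the high-calorie diet, and Retn rose with resveratrol, by 0.23 ± 0.053. Both Retn calls were lost under median centring, at -0.036 and 0.16. Cfd stood 2.57 ± 0.33 above the standard diet in resveratrol livers too (adjusted p = 0.00557), the sole marker called in that comparison. No red blood cell, skeletal muscle or pancreatic marker was called in limma among the 3, 3 and 4 tested, with up to 2 per list at an unadjusted p under 0.05, and Hbb-b1 was well above background on no standard-diet array.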

How the data were processed

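The deposited files hold, per the file headers, each spot's intensity and local background in both dyes, as read by Agilent Feature Extraction 7.5.1. The authors also deposited a value table in score units, centred and scaled per array (medians of -0.050 to 0.0023), whose scale factor is unknown and which rise with log2 Cy3 intensity (r of 0.98 to 0.99 across probes). Per the labels' protocols, RNA came from RNeasy columns and was amplified linearly. Here spot means were corrected by normexp (offset 50), ratios were normalised by loess within arrays with controls at weight 0, 576 spots flagged as outliers were left out, and each gene took its brightest probe (symbols from RefSeq GRCm38.p6; 20322 of 41174 probes matched none and kept the file's name). Genes that passed Agilent's well-above-background test in Cy3 on 4 or more arrays were fitted in limma 3.58.1 (R 4.3.3) with 3 groups, and calls are at a Benjamini-Hochberg adjusted p under 0.05 over 32675 genes. Tables and figures used Python 3.11.15, pandas 2.3.3 and matplotlib 3.10.9.

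P-values measure the spread between the numbered livers, and 4 or 5 arrays per group limit the precision. Dim probes are drawn towards 0 by the offset. Named collagens were types I, III, IV, V, VI, VIII (alpha 1), XIV, XV and XVIII, and any other called. Of each other list up to 3 called genes with the smallest adjusted p were named, or up to 2 as values where none was called. Other genes in the text were chosen after their values were seen. Members and lists were chosen with earlier results of these data known. The linear model was tested on simulated ratios with 200 changed genes. With group means removed, arrays of equal replicate number in different diets correlated at -0.19 to 0.30. Unequal numbers were not compared across diets, so these values cannot settle whether the numbers pair the arrays. The main fit used no pairing.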

Additional observations from a re-analysis of the deposited data

Results flagged for a closer look

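In a test for 1 sample far from the rest of its group (Dixon's criterion), 16 of 281 groups of log2 ratios held such a sample, 6 of them among the 111 groups of collagen genes; chance alone marks about 1 in 20.

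Among the collagens, Col9a1 stood at 0.12 in resveratrol replicate 4, while its other livers lay between -0.015 and 0.0034. Col4a1 stood at 0.17 in high-calorie replicate 2, above 0.0065 to 0.031 in the others. Col7a1 stood at -0.13 in high-calorie replicate 5, below 0.12 to 0.19. High-calorie replicate 4 held the lowest Col8a2 value, -0.086, below 0.061 to 0.11, and the lowest Col11a2 value, 0.020, below 0.18 to 0.20. Col5a3 stood at 0.51 in standard-diet replicate 2, above 0.14 to 0.23.

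Among the listed genes, resveratrol replicate 1 was highest for Ngfr (0.15) and Retn (0.23), and resveratrol replicate 2 was lowest for Gli1 (-0.24) and Lrat (-0.27). Apob stood at 1.05 in high-calorie replicate 4 and Cel at -0.15 in high-calorie replicate 3. Ahsg stood at 2.18 and Entpd2 at -0.16 in standard-diet replicate 2, Gli1 at 0.036 in standard-diet replicate 3 and Mylpf at 0.31 in standard-diet replicate 4.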

How the results depend on the processing

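For high-calorie against standard diet, 8 collagens were called. The count was 3 with the Cy3 channel alone, 4 with array brightness as a covariate, 2 of 28 with the authors' deposited scores, 5 of 25 with the files' own gene names, 5 with the slide series as a block, 2 within day 1, 0 within day 2 (3518 genes at an unadjusted p under 0.05) and 4 within the upper slide series, and 6 to 9 when 1 array was left out. For resveratrol against high-calorie, 3 were called. The count was 5 with array weights, 6 without background correction, 0 with the Cy3 channel alone (3335 genes at an unadjusted p under 0.05), 0 with the scores, 0 within day 1 and 0 within the lower slide series (3987 genes), and 2 to 6 when 1 array was left out, with 6 without standard-diet replicate 2. For resveratrol against standard diet the count was 0 in all 31 settings and with the scores. Calls over all genes moved too. For high-calorie against standard diet they were 304 higher and 144 lower with the brightness covariate, in place of 1754 and 1329. The scores gave 331 and 82 of 31433 genes, and the files' gene names 1858 and 1367 of 34714. With the slide series as a block 1194 and 680 were called. Within day 1 there were 607 and 212, and within the upper slide series 614 and 223. For resveratrol against high-calorie, 1685 and 1435 were called with array weights and 1442 and 1253 without background correction. The Cy3 channel alone gave 14 and 31 there, the scores 15 and 32, and the main fit 1033 and 727. Within day 1 that comparison gave 19 and 33. The smaller counts within a day or series came with fewer arrays, and the cause of the others was not tested. Whether equal replicate numbers pair the arrays was not settled, and with the replicate number as a block the counts were 7, 2 and 0.

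With the scores left aside, of 32 or 33 settings for high-calorie against standard diet, Col3a1 was called in 31 (0.47 to 0.89), Col1a2 in 32 (0.27 to 0.98), Col14a1 in 29 (0.30 to 0.97), Col18a1 in 29 (-0.54 to -0.070), Col8a1 in 28, Col1a1 in 26, Col5a1 in 25 and Col9a3 in 19. For resveratrol against high-calorie, Col1a2 was called in 29 of 32, Col3a1 in 28 of 31 and Col14a1 in 20 of 31. These settings are not independent, since 14 of them only leave out 1 array each. Another, a scaling of average intensities between arrays, leaves the ratios as they are and repeats the main fit. For genes with 1 probe, such as Col3a1 and Col14a1, the mean over all probes also reads the same ratios. For high-calorie against standard diet the sign turned for Col1a1 with the Cy3 channel alone (-0.13) and on its described probe (-0.018). For resveratrol against high-calorie that probe gave 0.043, and Col1a1 reached 0.34 over the settings. The sign also turned for Col3a1 on 1 described probe (-0.037 for high-calorie and 0.0089 for resveratrol). No background correction gave the lowest sizes of Col3a1, Col1a2 and Col14a1. Over all genes the calls ranged from 55 within day 2 to 6794 with array weights (3701 higher, 3093 lower) for high-calorie against standard diet, where the Cy3 channel gave 347 higher and 83 lower. They ranged from 0 within the lower slide series to 3120 with array weights for resveratrol against high-calorie, and from 4 with the scores to 214 without standard-diet replicate 2 for resveratrol against standard diet.

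Dim probes, such as those of Col6a1, Col10a1 and Col12a1, have signals close to background and limit what their ratios can show.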

Other observations

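Col24a1, a fibrillar collagen of bone and cornea, has no probe under its own name, but 1 probe carries it in its description. Its log2 ratio averaged -0.040 ± 0.31 in resveratrol (SD, n = 4), 0.28 ± 0.19 in high-calorie (SD, n = 5) and -0.11 ± 0.39 in standard-diet livers (SD, n = 5). The difference of 0.40 ± 0.17 between high-calorie and standard diet was not called in limma (adjusted p = 0.155). The dimmer probe of Col11a1, a cartilage fibrillar chain, spread widely among standard-diet livers. It averaged 0.042 ± 0.058 in high-calorie and 0.33 ± 0.58 in standard-diet livers (SD, n = 5 each), a difference of -0.29 ± 0.20 that was not called in limma (adjusted p = 0.371).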
